A study of Pagiophloeus tsushimanus with 15 samples.

Results

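The subject is the transcript response of larvae of the weevil Pagiophloeus tsushimanus to food that held D-camphor at 41 mg/g, the higher of the 2 D-camphor doses in the series. The comparison takes the 3 libraries of larvae on D-camphor at 41 mg/g and the 3 libraries of untreated larvae, 6 of 15 libraries in all. RNA came from whole bodies, so every level is a mean over all tissues. The other libraries are of larvae on D-camphor at 17 mg/g and on an additive labelled EO at 10 or 30 mg/g, with 3 libraries each. Unigenes, the assembled transcripts of the study, were kept where their mean over the 6 libraries was at least 1 TPM. TPM is a relative transcript level that is corrected for transcript length and sums to the same total in each library. Of 34486 unigenes, 12865 passed and were tested, 9296 of them with a protein description, and 21621 were not. The labels do not give the age of the larvae, how long they fed, or whether a library is 1 animal or a pool, so p-values measure only the spread between these libraries. The series title names metabolic and cuticular resistance to the terpenoids of the host as its subject.

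D-camphor is a monoterpenoid ketone, a volatile compound that plants hold as a defence. Insects deal with such compounds in 2 broad ways. In the gut, fat body and other tissues, cytochrome P450 monooxygenases oxidise them, transferases and esterases conjugate or split the products, and ABC transporters export them. The cuticle, a layered shell of chitin fibres and structural proteins that the epidermis secretes around each moult, is the barrier to contact, and the enzymes of the gut lumen meet whatever is eaten.

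Libraries on D-camphor at 41 mg/g correlated at 0.945 to 0.951 with each other on log2(TPM + 1), untreated libraries at 0.914 to 0.950, and libraries across the groups at 0.890 to 0.951. On the second principal component of the 15 libraries, which holds 22.5% of the variance, untreated replicate 1 lay at 40.5 and untreated replicates 2 and 3 at -29.0 and -18.7, while the D-camphor 41 mg/g libraries lay at -30.3, -53.5 and -20.2. Between 12128 and 13348 unigenes were over 1 TPM in the libraries on D-camphor at 41 mg/g, and between 12293 and 13659 in untreated libraries. Depth is unknown, since TPM keeps no read counts. Transcripts that mark other tissues were present in both groups. Summed over 61 muscle unigenes, the level was 25439 to 27682 TPM on D-camphor at 41 mg/g and 23466 to 34608 TPM in untreated larvae. Storage proteins of the fat body summed to 2575 to 4786 TPM on D-camphor at 41 mg/g and 3073 to 4461 TPM in untreated larvae, and 7 germ line unigenes to 80.3 to 95.3 TPM and 82.8 to 105 TPM in those groups.

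Of the 12865 tested unigenes, 2 (0.0155%) passed an adjusted p of 0.05 in limma with Benjamini-Hochberg adjustment, both cytochrome P450s and both higher on D-camphor. Limma gave an unadjusted p under 0.05 to 325 unigenes with a higher level (2.53%) and to 508 with a lower one (3.95%), which together are 6.47%. The 3 values of one group all lay above the 3 of the other for 452 unigenes higher on D-camphor (3.51%) and for 831 lower (6.46%). The log2 fold change on log2(TPM + 1), a scale that understates the change of unigenes at low levels, was at least 1 for 374 unigenes (2.91%) and at most -1 for 188 (1.46%), and its median over all tested unigenes was -0.04. Of the 374, 49 were cuticle proteins, 103 had no description, 138 were described as unknown or uncharacterized proteins and 84 had another description. Of the 188, 0 were cuticle proteins, 111 had no description and 38 were unknown or uncharacterized. Of the 374, 253 had their highest value of the 6 in D-camphor 41 mg/g replicate 2.

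**Figure D1:**
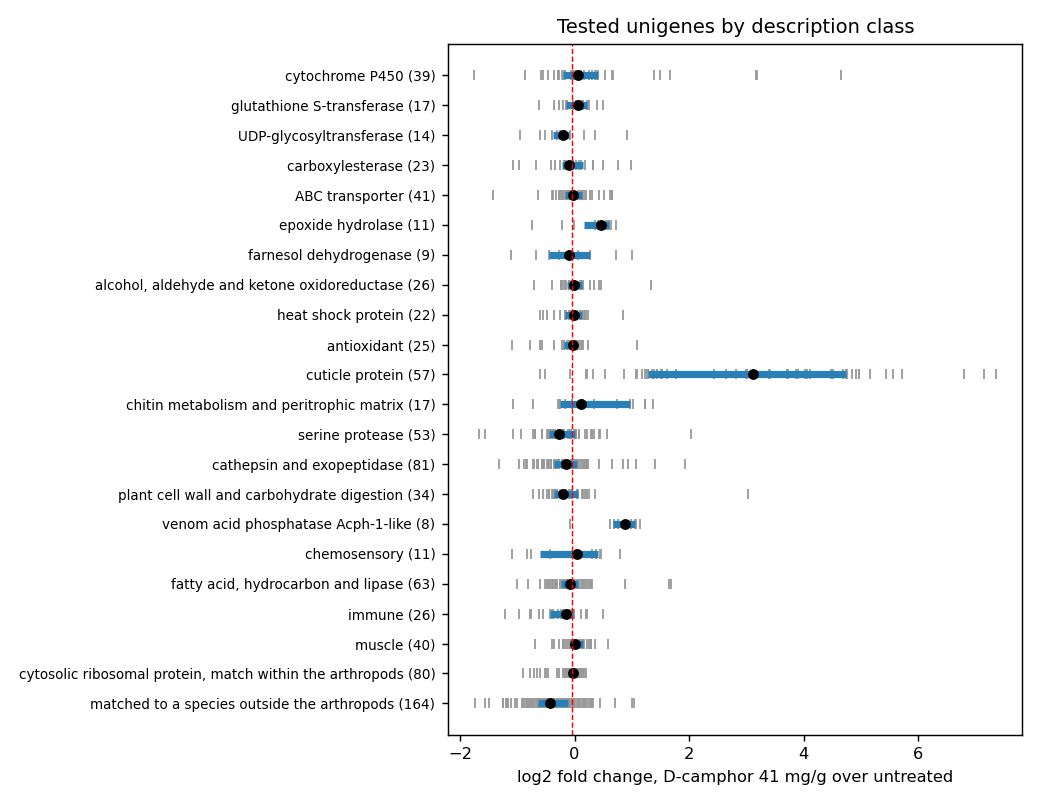
Log2 fold change of each tested unigene (grey ticks) by description class, D-camphor 41 mg/g over untreated larvae, with the class median (black point), its middle 50% (blue bar) and the number tested. The dashed line is the median of all tested unigenes, -0.04; the 57 tested cuticle proteins have a median of 3.12 (1.53 over all 75 in the table) and most other classes lie within 0.5 of the line.

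Cytochrome P450s of family 6 held both calls. In insects this family oxidises plant compounds and insecticides. The unigene described as P450 6a2-like (TRINITY_DN9219_c0_g1) stood at 23.8, 18.6 and 16.0 TPM on D-camphor at 41 mg/g, against 1.36, 0.70 and 1.76 TPM in untreated larvae. All D-camphor values lay above all untreated ones, and the unigene rose by a log2 fold change of 3.18 (SE 0.29, limma adjusted p = 0.00123; 95% interval 2.56 to 3.80). Probable P450 6a20 (TRINITY_DN12993_c0_g1) had 45.4, 20.4 and 35.0 TPM on D-camphor, against 0, 0 and 1.28 TPM in untreated larvae, where 2 libraries list it at 0. It rose by 4.64 on log2(TPM + 1) (SE 0.51, limma adjusted p = 0.00534), a value that depends on the pseudocount of 1. Fitted to the 6 libraries alone, limma called neither (adjusted p = 0.0886 for TRINITY_DN9219_c0_g1 and 0.118 for TRINITY_DN12993_c0_g1), and without D-camphor replicate 3 the adjusted p of TRINITY_DN12993_c0_g1 was 0.0511. In a whole body, a change in cell number and one in RNA per cell cannot be told apart for these or any later values.

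A second 6a2-like unigene (TRINITY_DN32261_c0_g1) had 34.9, 12.6 and 6.30 TPM on D-camphor at 41 mg/g and 0.49, 0.53 and 1.16 TPM in untreated larvae. Its groups did not overlap, and its log2 fold change of 3.17 (SE 0.57) did not pass the test (limma adjusted p = 0.0954). Probable P450 6a14 (TRINITY_DN1085_c0_g1), named after its values were seen, had 144, 89.1 and 96.2 TPM on D-camphor and 24.6, 30.04 and 49.1 TPM in untreated larvae, also without overlap (log2 fold change 1.67, SE 0.35, limma adjusted p = 0.183). Its TPM was 0.771 to 1.16 times that of an unknown protein (TRINITY_DN1904_c0_g1) in all 15 libraries, so where the 2 share reads their levels are uncertain.

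The other unigenes described as family 6 gave no such values. The table holds 22 unigenes whose description names the family, of which 19 were tested. Of these, 4 had an unadjusted p under 0.05 with a higher level and 0 with a lower one, and the median log2 fold change of the 19 was 0.08. The most abundant P450, another 6a2-like unigene (TRINITY_DN29625_c0_g1), had 2230, 1706 and 1995 TPM on D-camphor and 1796, 1654 and 1112 TPM in untreated larvae, which overlap (0.40, limma adjusted p = 0.934). Since this unigene is so abundant, the summed level of the family was 3495, 2510 and 3238 TPM on D-camphor against 2805, 2717 and 1983 TPM in untreated larvae, again with overlap. The 4 unigenes with small unadjusted p made up a small part of that sum.

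P450s whose description does not name family 6 had values in both directions, with a median of 0.05. They include 4 tested unigenes described only as cytochrome P450 of a bark beetle, whose family is not given. Of the 48 such P450s in the table, 20 were tested, and 1 had an unadjusted p under 0.05 with a higher level and 4 with a lower one. The lowest fold change was that of CYP4CV1 (TRINITY_DN1473_c0_g1), from a family with many fatty acid hydroxylases, with 7.90, 4.01 and 10.01 TPM on D-camphor and 32.4, 28.6 and 17.9 TPM in untreated larvae. These values did not overlap, with a log2 fold change of -1.75 (SE 0.64, limma adjusted p = 0.625). CYP49a1 (TRINITY_DN12128_c0_g1), named after its values were seen, had 0.76, 12.5 and 0.52 TPM on D-camphor against 0.02, 0.53 and 0.04 TPM in untreated larvae, so 1 library held nearly all of it.

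**Figure D2:**
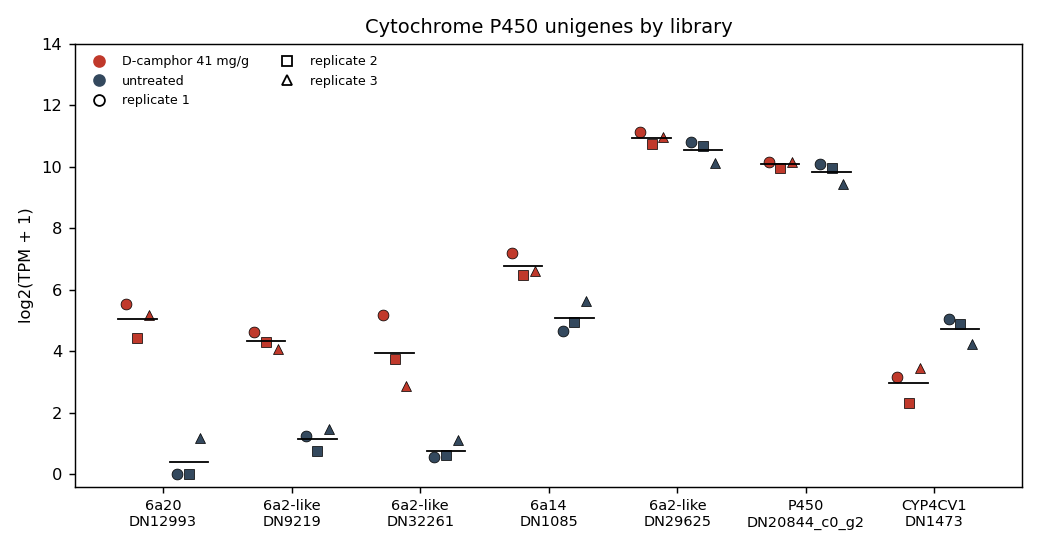
Level of 7 P450 unigenes as log2(TPM + 1) in each library, D-camphor 41 mg/g left of untreated larvae for each unigene, with the mean as a line and the replicate as the symbol. The 4 family 6 unigenes on the left lie apart between the groups, the 2 abundant P450s overlap, and CYP4CV1 lies lower on D-camphor.

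The other enzymes of detoxication showed few differences, and no member passed the adjusted test. Glutathione S-transferases, which attach glutathione to reactive compounds, had 17 tested of 28, with 0 at an unadjusted p under 0.05 in either direction and a median of 0.06. The most abundant was a glutathione S-transferase 1-like unigene (TRINITY_DN5591_c0_g1), at 1326, 714 and 1119 TPM on D-camphor and 962, 663 and 592 TPM in untreated larvae, which overlap. Of 14 tested UDP-glycosyltransferases, which attach sugars, 11 were lower and 3 higher, with a median of -0.21 and an unadjusted p under 0.05 for 1. This was UDP-glucuronosyltransferase 321G1 (TRINITY_DN2684_c0_g1), with 21.3, 25.6 and 25.4 TPM on D-camphor and 48.6, 36.4 and 61.0 TPM in untreated larvae (log2 fold change -0.96, SE 0.26, limma adjusted p = 0.316).

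Carboxylesterases, which split esters, had 23 tested of 35, with 1 higher and 2 lower at an unadjusted p under 0.05. ABC transporters, the export pumps, had 41 tested of 54, with 1 higher and 2 lower. The lowest of these transporters was TRINITY_DN18260_c0_g1, described as a pleiotropic ABC efflux transporter, a kind of pump known from yeasts, at 0.26, 0.08 and 0.13 TPM on D-camphor and 2.91, 1.39 and 2.12 TPM in untreated larvae. Its log2 fold change was -1.41 (SE 0.22, limma adjusted p = 0.0724). It stood at 0.07 to 0.55 TPM on D-camphor at 17 mg/g and also low on EO, at 0.02 to 0.51 TPM over 10 and 30 mg/g.

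Juvenile hormone epoxide hydrolases, which open the epoxide ring of the hormone and in some insects of other compounds, had a median of 0.47 over 11 tested unigenes, 8 higher and 3 lower, with 0 at an unadjusted p under 0.05. Their summed level overlapped, at 3071, 1810 and 2505 TPM on D-camphor and 2797, 1933 and 982 TPM in untreated larvae. A farnesol dehydrogenase-like unigene (TRINITY_DN414_c0_g1), from a family of short-chain alcohol dehydrogenases in juvenile hormone synthesis, had 1112, 805 and 970 TPM on D-camphor and 699, 571 and 484 TPM in untreated larvae. These groups did not overlap (0.72, SE 0.22, limma adjusted p = 0.473), but over all 9 tested members of that class the median was -0.10.

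Stress proteins differed little among the members tested, while those at low levels were mostly lower. Of 43 heat shock unigenes in the table, which code for chaperones, 32 had a lower mean on D-camphor and 10 a higher one, and 10 lay apart on the lower side and 2 on the higher, against 1952 lower and 1089 higher of all 34486. Below all 3 untreated libraries were 44.2%, 46.5% and 34.9% of the 43 in the 3 D-camphor libraries, against 15.5%, 17.7% and 23.4% of the whole table. Of 46 antioxidant unigenes 37 had a lower mean and 9 a higher one. Of the 22 tested heat shock proteins, 0 were higher and 1 lower at an unadjusted p under 0.05, with a median of -0.01, and of 25 tested antioxidant unigenes 1 was higher and 0 lower. That one, a probable phospholipid hydroperoxide glutathione peroxidase (TRINITY_DN1569_c0_g1) that reduces lipid peroxides, had 286, 177 and 207 TPM on D-camphor and 123.1, 133 and 64.6 TPM in untreated larvae (1.10, SE 0.36, limma adjusted p = 0.506). Its groups did not overlap.

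Cuticle proteins had the highest fold changes of any class and the widest spread between libraries, and 0 of them passed the adjusted test. They are the structural proteins that bind chitin in the cuticle, and this list is also the marker list of the epidermis. The table holds 75, of which 65 had a higher mean on D-camphor at 41 mg/g and 10 a lower one. The groups did not overlap for 28 of the 75, all higher. Of all 34486 unigenes, 1089 lay apart on the higher side. The 18 members that did not pass the filter were at low levels in both groups. Of the 57 tested, 25 had an unadjusted p under 0.05, all higher, 49 had a log2 fold change of at least 1, and the median was 3.12. With no filter the median over all 75 was 1.53. Members could pass the filter through the D-camphor libraries alone, so these last counts describe the tested members and support nothing further.

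The levels differed greatly between the 3 D-camphor libraries. Summed over the 75 unigenes, cuticle proteins held 10907, 57292 and 22978 TPM on D-camphor at 41 mg/g, which is 1.09%, 5.73% and 2.30% of all TPM, against 8010, 4252 and 7493 TPM in untreated larvae. Replicate 2 stood highest, and replicate 1 lay near the untreated libraries. Of the 57 tested members, 41 had their highest value of the 6 libraries in D-camphor replicate 2, 1 in replicate 1, 3 in replicate 3 and 12 in an untreated library. Set against all 3 untreated libraries, 36 of the 75 were higher in D-camphor replicate 1 (48.0%), 59 in replicate 2 (78.7%) and 48 in replicate 3 (64.0%). Over all 34486 unigenes the same shares were 20.9%, 22.0% and 13.2%. The median level of the tested members was 18.1, 160 and 71.0 TPM on D-camphor and 0.47, 3.50 and 3.47 TPM in untreated larvae. Without D-camphor replicate 2 the median log2 fold change was 2.27, with 42 of 57 members at 1 or more and 4 with a higher level at an unadjusted p under 0.05. That count was 16 without D-camphor replicate 3, 14 without untreated replicate 2 and 12 without untreated replicate 3, and it was 33 without D-camphor replicate 1 and 35 without replicate 1 of EO at 10 mg/g. Over all fits with 1 library left out it ran from 4 to 35. These medians and counts of the 57 tested members carry the same limit of the filter. They describe those members and support nothing further.

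**Figure D3:**
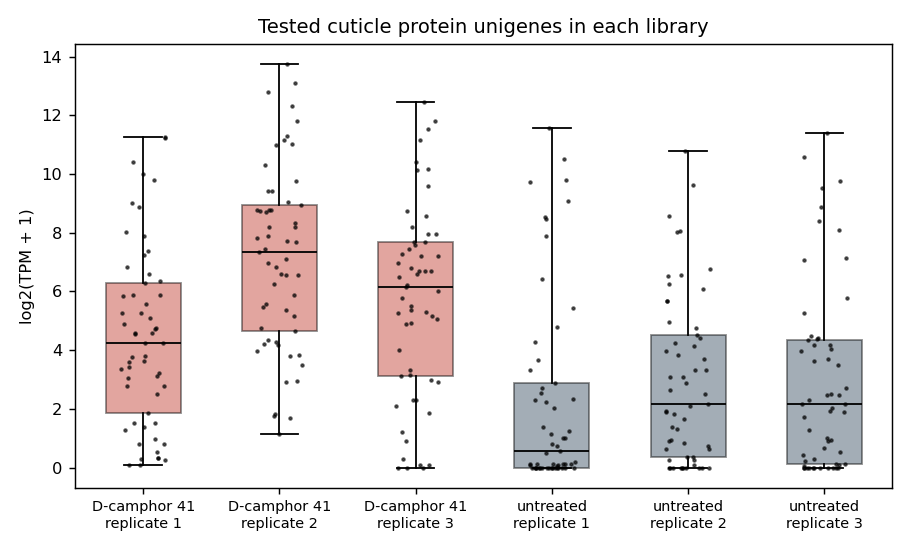
Level of the 57 tested cuticle protein unigenes as log2(TPM + 1) in each of the 6 libraries, D-camphor 41 mg/g on the left. Boxes give the middle 50% and the median, whiskers the full range and dots the unigenes. The medians are 18.1, 160 and 71.0 TPM on D-camphor and 0.47, 3.50 and 3.47 TPM in untreated larvae. Members could pass the filter through the D-camphor libraries alone, so the medians describe the tested members only.

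The kinds of cuticle protein differed in size of change. All 3 tested larval cuticle protein 65Ag1-like unigenes had a log2 fold change of at least 3.39, with a median of 6.81. One of them, TRINITY_DN24856_c0_g1, had 259, 2049 and 423 TPM on D-camphor and 4.84, 1.46 and 4.50 TPM in untreated larvae (7.15, SE 2.28, limma adjusted p = 0.506). The groups lay far apart, while the SE reflects a spread of this unigene between libraries of all 5 groups.

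All 4 flexible cuticle protein 12-like unigenes had values of 4.52 or more, with a median of 5.36. Flexible cuticle proteins are known from the soft, bendable cuticle of larvae. The highest fold change of all tested unigenes was in this kind, in TRINITY_DN9676_c0_g1, at 81.1, 2073 and 769 TPM on D-camphor and 3.92, 0.55 and 2.84 TPM in untreated larvae (7.36, SE 2.78, limma adjusted p = 0.655). The more abundant TRINITY_DN32673_c0_g1 had 1347, 8903 and 2979 TPM on D-camphor and 236, 9.11 and 139 TPM in untreated larvae.

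Endocuticle structural glycoproteins, named for the inner layer of the cuticle, held most of the summed level. Their log2 fold changes ranged widely, and the 1 ABD-4-like unigene had 5.44 and the SgAbd-2-like and SgAbd-3-like kinds medians of 2.10 and 2.02. SgAbd-3-like unigenes summed to 4068, 21301 and 5209 TPM on D-camphor and 2121, 384 and 4154 TPM in untreated larvae, where D-camphor replicate 1 lay below untreated replicate 3. The most abundant of them, TRINITY_DN36604_c1_g1, had 2481, 13736 and 3558 TPM on D-camphor and 855, 50.6 and 872 TPM in untreated larvae (3.87, SE 1.73). Another (TRINITY_DN26107_c0_g1, named after its values were seen) had a lower mean, with 465, 2285 and 102 TPM on D-camphor and 547, 262 and 2675 TPM in untreated larvae, a log2 fold change of -0.60 that turns to 0.34 without untreated replicate 3 and 0.50 without D-camphor replicate 3. The SgAbd-8-like unigene TRINITY_DN37462_c1_g1 had 2382, 7118 and 5572 TPM on D-camphor and 3055, 1761 and 1542 TPM in untreated larvae, and these overlap.

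A larval cuticle protein III/IV-like unigene (TRINITY_DN1987_c0_g3) had the smallest unadjusted p of the class. It had 23.1, 491 and 124 TPM on D-camphor at 41 mg/g and 0.09, 7.55 and 0.10 TPM in untreated larvae (5.71, SE 1.26, limma adjusted p = 0.220). On D-camphor at 17 mg/g it lay between 0 and 0.26 TPM, and on EO at 30 mg/g between 0.11 and 3.84 TPM. Some kinds had values near 0: cuticle protein 18.6 had a log2 fold change of 0.20 and adult-specific rigid cuticular protein 15.7 one of -0.08.

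High cuticle protein levels were also found in libraries of other groups. The summed level on EO at 10 mg/g was 93016, 6174 and 14533 TPM, the highest of the 15 libraries beside 1 inside the untreated range. It was 29270, 10900 and 28849 TPM on D-camphor at 17 mg/g and 58036, 14739 and 13907 TPM on EO at 30 mg/g, and in both groups 1 library differed from the others by over 2-fold. Among the 57 tested members, 0 were called between D-camphor at 41 and 17 mg/g and 0 between D-camphor at 41 mg/g and EO at 30 mg/g, with median differences of 1.51 and 0.99 on the log2 scale.

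Some other unigenes tied to moulting and the cuticle also had their highest value of the 6 libraries in D-camphor replicate 2, as did 2071 of all 12865 tested unigenes. Of 5 tested cuticle tanning unigenes 2 were highest there, and of 17 chitin and peritrophic matrix unigenes 4 were, with 10 of the 17 highest in an untreated library. Of 6 tested ecdysone and juvenile hormone unigenes 3 were highest in replicate 2 and 3 in an untreated library. Of 63 tested fatty acid, hydrocarbon and lipase unigenes 8 were highest in replicate 2 and 44 in an untreated library. So in none of these classes were most members highest in replicate 2. The summed level of cuticle tanning unigenes was 1776, 503 and 1061 TPM on D-camphor and 751, 657 and 266 TPM in untreated larvae, lowest in D-camphor replicate 2 among the D-camphor libraries. Ecdysone and juvenile hormone unigenes summed to 49.3, 49.0 and 43.0 TPM on D-camphor and 47.1, 44.8 and 53.5 TPM in untreated larvae, which overlap. In that class, ecdysone 20-monooxygenase (TRINITY_DN22851_c0_g1) had 31.7, 22.8 and 27.3 TPM on D-camphor and 36.0, 28.8 and 38.0 TPM in untreated larvae. FTZ-F1 (TRINITY_DN1032_c0_g1), a nuclear receptor of the moulting cascade in Drosophila, had 1.06, 8.22 and 3.08 TPM on D-camphor and 1.11, 0.66 and 0.68 TPM in untreated larvae, and ecdysone-induced protein 74EF (TRINITY_DN6767_c0_g1) had 1.62, 4 and 2.20 TPM and 0.75, 1.51 and 1.21 TPM in those groups. A unigene described as yellow (TRINITY_DN5684_c0_g1), a protein of cuticle pigmentation in Drosophila, had 3.86, 13.5 and 5.71 TPM on D-camphor and 1.22, 1.07 and 1.70 TPM in untreated larvae (1.75, SE 0.46, limma adjusted p = 0.305). A putative fatty acyl-CoA reductase (TRINITY_DN11696_c0_g1), from a family that makes the alcohols of cuticle lipids, had 3.03, 12.5 and 5.99 TPM on D-camphor and 1.11, 1.32 and 1.47 TPM in untreated larvae (1.66, SE 0.49, limma adjusted p = 0.419). The groups of FTZ-F1 overlap and those of the other 3 do not. The place of each library in the moulting cycle is not in the labels, and its part in the cuticle values was not tested.

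Some groups of digestive enzymes had lower summed levels on D-camphor at 41 mg/g, while the sums of the wider classes overlapped, and 0 members passed the adjusted test. Cathepsins and exopeptidases summed to 65921, 66748 and 71912 TPM on D-camphor and 85882, 71556 and 62446 TPM in untreated larvae. Enzymes of plant cell wall and carbohydrate digestion summed to 7919, 9350 and 8692 TPM on D-camphor and 12067, 11285 and 8998 TPM in untreated larvae. Such enzymes are secreted by the midgut, which meets the diet first. Serine proteases, the trypsins and chymotrypsins that cut dietary protein, number 69 in the table. They summed to 13539, 13659 and 14933 TPM on D-camphor and 20423, 15669 and 18448 TPM in untreated larvae, without overlap in TPM as deposited. Median-of-ratios scaling, which sets libraries to a common level by the typical unigene, gave factors of 1.22 for untreated replicate 3 and 0.942 for D-camphor replicate 3. With each library divided by its factor, the sums of serine proteases, carboxypeptidase B-like unigenes and polygalacturonases overlap. Of the 69, 55 had a lower mean on D-camphor and 14 a higher one, against 18876 lower and 14837 higher of all 34486. Those below all 3 untreated libraries were 22, 23 and 23 of 69 in the 3 D-camphor libraries (31.9%, 33.3% and 33.3%), against 15.5%, 17.7% and 23.4% of the whole table. Of the 53 tested, 7 were lower and 1 higher at an unadjusted p under 0.05, and the median was -0.28. Groups lay apart for 11 of the 53 on the lower side and 2 on the higher, against 6.46% and 3.51% of all tested unigenes.

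The serine proteases with the smallest unadjusted p were not the abundant ones. A chymotrypsin-2-like unigene (TRINITY_DN15728_c0_g1) had 16.8, 15.2 and 17.9 TPM on D-camphor and 22.8, 23.1 and 25.1 TPM in untreated larvae (-0.49, SE 0.11, limma adjusted p = 0.225). A brachyurin-like unigene (TRINITY_DN19825_c0_g1) had 4.11, 2.70 and 5.36 TPM on D-camphor and 19.0, 7.53 and 17.2 TPM in untreated larvae (-1.56, SE 0.37). A trypsin-4-like unigene (TRINITY_DN5345_c0_g1) had 21.3, 22.4 and 21.8 TPM on D-camphor and 43.0, 51.2 and 47.9 TPM in untreated larvae (-1.08, SE 0.26). The groups lay apart in all 3. The most abundant, a trypsin-like proteinase (TRINITY_DN14377_c0_g1), had 4880, 5062 and 5532 TPM on D-camphor and 6348, 5238 and 6108 TPM in untreated larvae, which overlap.

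Among exopeptidases, which remove amino acids from the ends of peptides, 12 are described as carboxypeptidase B-like. All 12 passed the filter, and all 12 had a lower mean TPM on D-camphor at 41 mg/g, while on the log2 scale 11 were lower and 1 was higher, by 0.93. Their summed level was 9523, 8202 and 10285 TPM on D-camphor and 15249, 11733 and 13237 TPM in untreated larvae. These did not overlap in TPM as deposited but did after median-of-ratios scaling. Of the 12, 7 lay apart on the lower side, against 831 of 12865 tested unigenes (6.46%), and 5 had an unadjusted p under 0.05. This group was chosen with earlier results of these data known, so its counts describe it and support nothing further. The most abundant (TRINITY_DN35607_c0_g1, named after its values were seen) had 2485, 2416 and 2647 TPM on D-camphor and 4580, 3495 and 3766 TPM in untreated larvae (-0.64, SE 0.24, limma adjusted p = 0.667). The 12 share a description and may share reads, so they are not separate measurements. Cathepsin L, a protease of the gut in many beetles and the most abundant unigene of the class of cathepsins and exopeptidases, had no call: TRINITY_DN14638_c0_g1 averaged 18035 ± 1065 TPM on D-camphor and 16958 ± 2659 TPM in untreated larvae (SD, n = 3 each).

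Polygalacturonases, which break the pectin of plant cell walls, number 9, all tested. Their summed level was 4855, 5737 and 5211 TPM on D-camphor and 6937, 7261 and 6200 TPM in untreated larvae. These did not overlap in TPM as deposited but did after median-of-ratios scaling. Of the 9, 6 lay apart on the lower side and 0 on the higher, against 831 (6.46%) and 452 (3.51%) of 12865 tested unigenes. This group too was chosen with earlier results known, so its counts describe it only. The 2 most abundant (TRINITY_DN40127_c1_g1 and TRINITY_DN40127_c2_g1), which come from 1 assembly cluster, had log2 fold changes of -0.36 each (SE 0.17 and 0.16). The first had 2232, 2579 and 2432 TPM on D-camphor and 3154, 3373 and 2806 TPM in untreated larvae. Over all 34 tested enzymes of plant cell wall and carbohydrate digestion, 5 were lower and 0 higher at an unadjusted p under 0.05, and the median was -0.20. On D-camphor at 17 mg/g serine proteases summed to 15564, 14500 and 12982 TPM and carboxypeptidase B-like unigenes to 9215, 9765 and 8980 TPM, which overlap the values at 41 mg/g. Summed polygalacturonases stood at 6560, 7286 and 5660 TPM on D-camphor at 17 mg/g and 5738, 6081 and 7330 TPM on EO at 30 mg/g, and 0 members were called against either.

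**Figure D4:**
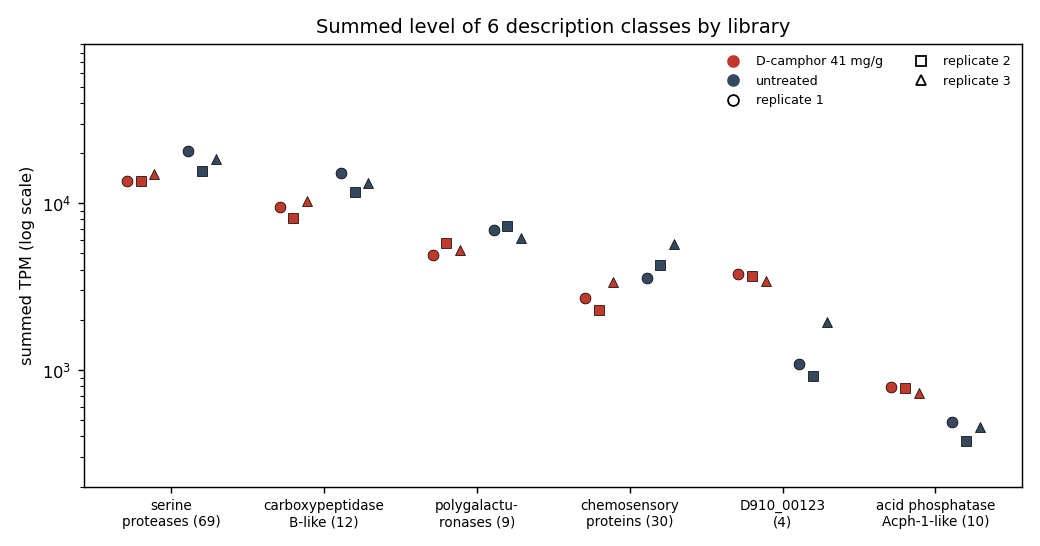
Summed TPM (log axis) of 6 description classes in each library, D-camphor 41 mg/g left of untreated larvae, with the number of unigenes in the table in brackets. Serine proteases, carboxypeptidase B-like unigenes, polygalacturonases and chemosensory proteins lie lower on D-camphor, and the D910_00123 and acid phosphatase unigenes higher, without overlap in any of the 6. The values are TPM as deposited. After median-of-ratios scaling the sums of serine proteases, carboxypeptidase B-like unigenes and polygalacturonases overlap.

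Chemosensory proteins carry odorants and tastants to receptors, and some bind other small hydrophobic compounds. Their summed level over 30 unigenes was 2684, 2275 and 3365 TPM on D-camphor and 3536, 4236 and 5705 TPM in untreated larvae, without overlap. One unigene made up most of it, odorant binding protein 12 (TRINITY_DN37769_c0_g1), with 2023, 1905 and 2719 TPM on D-camphor and 2764, 3655 and 4989 TPM in untreated larvae (-0.76, SE 0.34, limma adjusted p = 0.761). Odorant binding protein 32 (TRINITY_DN11846_c0_g1) had 135, 40.8 and 67.2 TPM on D-camphor and 148, 152 and 164 TPM in untreated larvae (-1.10, SE 0.47). Of the 11 tested members, 3 were lower and 1 higher at an unadjusted p under 0.05, and the median was 0.04, so the sum follows that 1 unigene.

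Some unigenes without a known function came close to the adjusted threshold, and those given here were named after their values were seen. TRINITY_DN986_c0_g1, an unknown protein, had 301, 136 and 190 TPM on D-camphor and 28.5, 48.0 and 29.4 TPM in untreated larvae (2.50, SE 0.36, limma adjusted p = 0.0563). TRINITY_DN14512_c0_g1, described as LOC109540566 of a bark beetle, had 1694, 1565 and 1345 TPM on D-camphor and 238, 352 and 470 TPM in untreated larvae (2.16, SE 0.36, limma adjusted p = 0.0895). Both were also high on D-camphor at 17 mg/g, at 167 to 244 TPM and 567 to 1343 TPM. Neither was called between the camphor doses.

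All 4 unigenes described as hypothetical protein D910_00123, a group also named after its values were seen, were tested and lay apart on the higher side, with log2 fold changes of 1.204 to 1.78. Of all 12865 tested unigenes, 452 (3.51%) lay apart on that side. The summed level of the 4 was 3738, 3652 and 3429 TPM on D-camphor at 41 mg/g and 1082, 914 and 1935 TPM in untreated larvae. The lowest adjusted p by limma was 0.0913, for TRINITY_DN3101_c0_g1 with 1356, 1168 and 1127 TPM on D-camphor and 461, 372 and 687 TPM in untreated larvae. In the 15 libraries the TPM of TRINITY_DN17678_c0_g1 was 0.464 to 0.565 times that of TRINITY_DN3101_c0_g1, and the 4 may share reads. The sums were 2893, 3643 and 3799 TPM on D-camphor at 17 mg/g and 2707, 3691 and 2292 TPM on EO at 30 mg/g.

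Venom acid phosphatase Acph-1-like unigenes, from a family of secreted phosphatases first described in bee venom, summed to 785, 781 and 732 TPM on D-camphor and 485, 375 and 455 TPM in untreated larvae, without overlap. Of the 10 members, 8 had a higher mean and 4 lay apart, all higher, against 1089 of all 34486 unigenes apart on the higher side. This group was also chosen with earlier results known, so its counts describe it only. Among the 8 tested, TRINITY_DN7344_c0_g1, named after its values were seen, had the smallest unadjusted p, with 57.8, 60.6 and 50.7 TPM on D-camphor and 40.8, 27.2 and 37.3 TPM in untreated larvae (0.68, limma adjusted p = 0.251). On D-camphor at 17 mg/g these unigenes summed to 768, 662 and 564 TPM and on EO at 30 mg/g to 714, 752 and 786 TPM.

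Sequences described from species outside the arthropods mostly had a lower mean on D-camphor at 41 mg/g. The table holds 1195 with such a match, of which 934 had a lower mean and 227 a higher one. Of the 1195, 156 lay apart on the lower side and 3 on the higher, against 1952 and 1089 of all 34486. Below all 3 untreated libraries were 33.6%, 33.6% and 20.7% of the 1195 in the 3 D-camphor libraries, against 15.5%, 17.7% and 23.4% of the whole table, so replicate 3 did not follow the other 2. Only 164 passed the filter, with a median log2 fold change of -0.43, 29 lower and 0 higher at an unadjusted p under 0.05, and 0 past the adjusted test. Members at low levels could pass the filter through the untreated libraries alone, so these last values describe the tested members and support nothing further. The summed level of all 1195 overlapped, at 21035, 22806 and 20314 TPM on D-camphor and 19107, 21225 and 28835 TPM in untreated larvae. Whether they are transcripts of the weevil or of another organism was not tested.

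An elongation factor 1-alpha unigene matched to the worm Priapulus (TRINITY_DN1422_c0_g1, named after its values were seen), which brings tRNA to the ribosome, had 1.02, 0.29 and 0.18 TPM on D-camphor at 41 mg/g and 2.70, 3.31 and 3.98 TPM in untreated larvae (-1.56, SE 0.24, limma adjusted p = 0.0724). It had 0.60 to 1.07 TPM on D-camphor at 17 mg/g and was also low on EO, at 0.20 to 0.79 TPM over 10 and 30 mg/g. Outside this class, a hexose transporter HXT13-like unigene matched to a Drosophila species (TRINITY_DN750_c0_g1), with a name known from yeast, had 0.56, 0.34 and 0.18 TPM on D-camphor and 5.96, 2.37 and 4.09 TPM in untreated larvae (-1.87, SE 0.32, limma adjusted p = 0.0954). Ribosomal proteins matched outside the arthropods summed to 42.0, 38.3 and 93.4 TPM on D-camphor and 148, 118 and 66.0 TPM in untreated larvae, which overlap, and of all 62 members 56 had a lower mean and 6 a higher one. All 35 tested had a lower value on the log2 scale, but at levels near 1 TPM members could pass the filter through the untreated libraries alone, so that count supports nothing further. Ribosomal proteins matched within the arthropods summed to 37291, 44011 and 37456 TPM on D-camphor and 35224, 35275 and 50946 TPM in untreated larvae, and the median of their 80 tested members was -0.03.

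Both an unadjusted p under 0.05 and groups apart were found for 240 tested unigenes on the higher side (1.87%) and 387 on the lower (3.01%). The 10 lowest log2 fold changes among the 387 belonged to 7 unigenes with no description and 3 with one. The lowest was TRINITY_DN25634_c0_g1, with 0.65, 1.25 and 0.60 TPM on D-camphor and 10.3, 9.18 and 20.4 TPM in untreated larvae (-2.90, SE 0.53, limma adjusted p = 0.0974). It stood at 2.05 to 4.82 TPM on D-camphor at 17 mg/g. Of these 10, 4 were listed at 0 in all 3 D-camphor 41 mg/g libraries and under 12 TPM in untreated larvae.

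The difference between D-camphor at 41 mg/g and the other diets was tested directly. Effects against untreated larvae share the untreated libraries, so they are given side by side only. Between D-camphor at 41 and 17 mg/g limma called 4 of 12865 unigenes (0.0311%), 3 higher (0.0233%) and 1 lower (0.00777%) at 41 mg/g. An unadjusted p under 0.05 was given to 331 higher (2.57%) and 899 lower (6.99%), together 9.56%. The 3 were at 2 to 6 TPM on D-camphor at 41 mg/g. The unigene described as early nodulin-75 (TRINITY_DN16997_c0_g1) had 2.78, 5.99 and 5.90 TPM at 41 mg/g and 0.25, 0.28 and 0.08 TPM at 17 mg/g, a log2 difference of 2.24 (SE 0.29, limma adjusted p = 0.0450). It had 0.10, 1.40 and 0.51 TPM in untreated larvae and 0.02 to 0.14 TPM on EO at 30 mg/g.

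The other 2 were the uncharacterized TRINITY_DN40441_c0_g1 and TRINITY_DN21496_c0_g1, with log2 differences of 1.89 and 1.86 (limma adjusted p = 0.0450 and 0.0497). The first had 3.23, 4.53 and 2.08 TPM at 41 mg/g and 0.05, 0.32 and 0.02 TPM at 17 mg/g. The one unigene lower at 41 mg/g was TRINITY_DN2254_c0_g1, described as a hypothetical protein of a roundworm, with 2.56, 3.02 and 2.97 TPM at 41 mg/g and 13.2, 31.2 and 29.7 TPM at 17 mg/g (-2.65, SE 0.37, limma adjusted p = 0.0450). These 4 unigenes, all named after their values were seen, did not overlap between the doses. Limma called 0 between the doses with a pseudocount of 0.1 TPM, and also 0 without untreated replicate 3.

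No P450 was called between the camphor doses. The 6a2-like TRINITY_DN9219_c0_g1 had 23.8, 18.6 and 16.0 TPM at 41 mg/g and 7.95, 11.01 and 5.58 TPM at 17 mg/g, without overlap, a log2 difference of 1.18 (95% interval 0.56 to 1.80, limma adjusted p = 0.234). For 6a20 (TRINITY_DN12993_c0_g1) the difference was -0.41, with an interval of -1.51 to 0.69 that covers both a lower and a higher level, and for 6a14 (TRINITY_DN1085_c0_g1) it was 0.59, with an interval of -0.17 to 1.34. The intervals are wide. A 2-fold higher level at 41 mg/g is inside those of TRINITY_DN9219_c0_g1 and 6a14. It is outside that of 6a20, where a 2-fold lower level is inside.

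Between D-camphor at 41 mg/g and EO at 30 mg/g limma called 15 unigenes (0.117%), 5 higher (0.0389%) and 10 lower (0.0777%) on D-camphor. An unadjusted p under 0.05 was given to 766 higher (5.95%) and 686 lower (5.33%), together 11.3%. The doses in mg/g are not matched, and all unigenes below but the 6a2-like and 6a20 P450s were named after their values were seen. The 4 family 6 P450s given above were among the lower ones. TRINITY_DN9219_c0_g1 had 681, 588 and 398 TPM on EO at 30 mg/g, a log2 difference of -4.75 for D-camphor minus EO (SE 0.29, limma adjusted p = 1.25e-05). TRINITY_DN12993_c0_g1 had 737, 920 and 595 TPM on EO, a difference of -4.49 (limma adjusted p = 0.00305), and TRINITY_DN32261_c0_g1 and TRINITY_DN1085_c0_g1 differed by -3.61 and -3.09. The unknown proteins TRINITY_DN986_c0_g1, TRINITY_DN1904_c0_g1 and TRINITY_DN986_c0_g2 were lower on D-camphor as well, by -3.10, -3.04 and -1.87.

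The 5 that were higher on D-camphor at 41 mg/g than on EO at 30 mg/g included the 3 of the dose comparison. Early nodulin-75 (TRINITY_DN16997_c0_g1), TRINITY_DN40441_c0_g1 and TRINITY_DN21496_c0_g1 differed by 2.38, 1.92 and 1.89. The remaining 2 were the uncharacterized TRINITY_DN1624_c0_g1 and TRINITY_DN2083_c0_g1, with differences of 1.29 and 0.97. TRINITY_DN2083_c0_g1 had 14.2, 14.1 and 16.3 TPM on D-camphor at 41 mg/g, 6.95, 5.65 and 8.92 TPM on EO at 30 mg/g, and 10.7, 13.9 and 13.9 TPM in untreated larvae, so it lay lowest on EO. The last 3 of the 10 lower ones were TRINITY_DN2305_c0_g1, TRINITY_DN5695_c0_g1 and TRINITY_DN154_c0_g2, with differences of -1.53, -2.17 and -1.23.

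**Figure D5:**
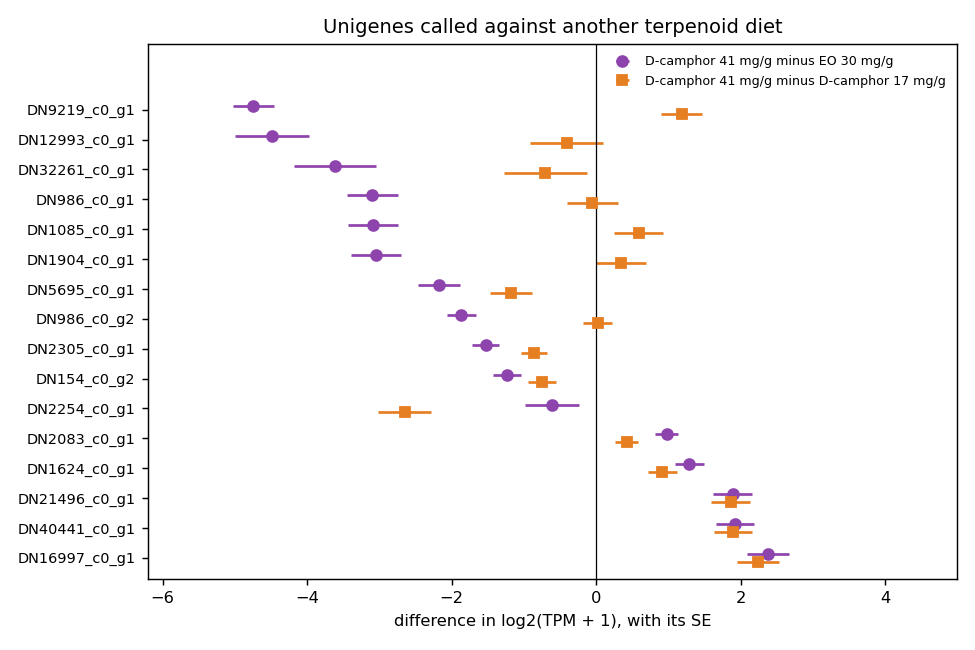
Difference in log2(TPM + 1) with its SE for the 16 unigenes called between D-camphor at 41 mg/g and EO at 30 mg/g (circles) or D-camphor at 17 mg/g (squares), each as D-camphor 41 mg/g minus the other diet. The P450 TRINITY_DN9219_c0_g1 lies at -4.75 against EO and at 1.18 against the lower camphor dose, and early nodulin-75 (TRINITY_DN16997_c0_g1) at 2.38 and 2.24.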

How the data were processed

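The deposited table gives TPM for 34486 unigenes in 15 libraries, 1 column each, which the authors scaled to an equal total: columns sum to between 999999.16 and 1000001.21. Per the labels, TRIzol served to extract RNA from whole larvae and NEBNext Ultra kits to build the libraries. For the assembler, the aligner and the counting method, a name is not given in the sources used here. TPM keeps no counts, so depth and counting precision are unknown. Columns were matched to libraries by the letter and replicate number of the titles.

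From the deposited TPM, log2(TPM + 1) was computed. Unigenes that averaged 1 TPM or more in the 6 libraries of D-camphor 41 mg/g and untreated larvae were tested in limma 3.58.1 under R 4.3.3, with 1 mean per group over all 15 libraries, a variance trend, 10 residual and 2.16 prior degrees of freedom, two-sided moderated tests and Benjamini-Hochberg adjustment over the 12865 unigenes. The method was tested on simulated data.

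Classes were made from words in the descriptions, which give the closest database protein, not a function measured in this weevil. They get counts, medians and sums over all members in the table, and no test. The members, classes and search words were chosen with earlier results of these data known. Named unigenes are those past the adjusted threshold, the 10 largest rises and falls with unadjusted p under 0.05 and groups apart, and per class the 2 most abundant and the 3 with the smallest p; any other unigene is said to be named after its values were seen, as are those called against other diets. Alternatives changed the pseudocount, filter, scaling, weights, replicate block and the libraries used.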

Additional observations from a re-analysis of the deposited data

How the results depend on the processing

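Calls against untreated larvae numbered 2 as reported, 5 with a pseudocount of 0.1 TPM, 51 with no filter on level (15 higher and 36 lower), 7 with median-of-ratios scaling (5 higher and 2 lower), 9 with array quality weights (6 higher and 3 lower) and 0 with only the libraries of the 2 groups compared. Leaving out 1 library in turn gave 1 to 12. Calls against D-camphor at 17 mg/g numbered 4 as reported, 0 with a pseudocount of 0.1 TPM, 7 with no filter, 0 with a filter at 5 TPM, 0 with the filter set over all 15 libraries, 48 with array quality weights (14 higher and 34 lower), 14 with only the libraries of the 2 groups compared, and 0 to 11 with 1 library left out. Calls against EO at 30 mg/g numbered 15 as reported, 7 with only the libraries of the 2 groups compared, and 9 to 25 with 1 library left out. The cause of these shifts was not tested. The adjusted p of TRINITY_DN12993_c0_g1 was 0.0633 without untreated replicate 1 and D-camphor 41 mg/g replicate 2, an alternative chosen after seeing the data. The log2 fold change of TRINITY_DN26107_c0_g1 was 0.27 with array quality weights and -1.93 to 0.50 with libraries left out, and that of TRINITY_DN14638_c0_g1 was -0.021 to 0.21 with 1 left out.

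The replicate numbers did not pair the libraries of D-camphor 41 mg/g and untreated larvae, since the deviations of same-numbered libraries correlated at -0.180, 0.0518 and -0.177. A fit with the replicate number as a block gave 2 calls against untreated larvae, 0 against D-camphor at 17 mg/g and 10 against EO at 30 mg/g. With 3 libraries a group and no read counts, the depth behind low values is unknown.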

Other observations

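The most abundant unigene of the table, described as a calponin homology domain-containing protein (TRINITY_DN31894_c0_g1), had 92298, 79132 and 91435 TPM on D-camphor at 41 mg/g and 59484, 65086 and 48279 TPM in untreated larvae. Its groups did not overlap, and its log2 fold change of 0.61 did not pass the test (SE 0.24, adjusted p = 0.698 by limma). Of the transposable elements in the table, 466 had a higher mean on D-camphor at 41 mg/g and 499 a lower one, and the median of the 285 tested was -0.04, as over all tested unigenes. Of 26 tested immune unigenes 22 had a lower value on the log2 scale and 4 a higher one, with a median of -0.15, and 2 had an unadjusted p under 0.05, both lower. Their summed level overlapped, at 2702, 2317 and 2076 TPM on D-camphor and 2245, 2304 and 3915 TPM in untreated larvae.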
